A study of Rattus norvegicus with 5 samples.

Results

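The endoplasmic reticulum (ER) folding machinery of Fischer rat thyroid (FRT) cells was compared between 3D follicles and 2D monolayers. The gene set holds 44 genes picked by name, which encode luminal chaperones, disulfide and proline isomerases and oxidases, DnaJ cochaperones, sensors of the unfolded protein response with their transcription factor Xbp1, components of ER-associated degradation, and the translocon. Probes were assigned to rat genes through RefSeq, and 40 of the 44 genes had a probe, of 15154 genes measured in all. No probe was matched for the lectin-like protein Edem1 and the derlin Derl2, both of degradation, for the secreted chaperone-like factor Manf, or for the translocon subunit Sec62. FRT cells are an established epithelial line from thyroid of the Fischer rat, so both conditions come from 1 line. RNA was taken on day 5 of culture, either from follicles grown in Matrigel, a basement membrane gel (3D), or from confluent monolayers (2D). On each of 4 arrays, 1 of 4 separate 3D cultures was labelled with Cy5 and set against a pool of 4 2D cultures in Cy3, and a further array had the dyes swapped, with the 2D pool in Cy5 against pooled 3D cultures in Cy3. All ratios below are log2 of 3D over 2D, positive where the signal was higher in 3D.

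Secretory and membrane proteins enter the ER through the Sec61 channel, are folded there by the Hsp70 chaperone BiP (Hspa5), by the Hsp90 chaperone Grp94 (Hsp90b1), by the lectins calreticulin (Calr) and calnexin (Canx) and by protein disulfide isomerases, and are exported to the cytosol for degradation if folding fails. When unfolded proteins build up, the membrane sensors Ire1 (Ern1), Perk (Eif2ak3) and Atf6 raise the transcription of these genes through spliced Xbp1 and cleaved Atf6, and slow translation through phosphorylation of eIF2-alpha, which favours the translation of Atf4. In the thyroid this machinery is known above all for folding thyroglobulin, the very large precursor of thyroid hormone. In these cells thyroglobulin (Tg) was not well above background on any array in either condition. All 9 epithelial markers examined were well above background, and of the 9 thyroid follicular markers 6 were, among them Pax8 and Duox2. Of the markers of other cell types, 4 of 8 of fibroblasts, 1 of 5 of endothelium, 2 of 6 of leukocytes and 2 of 5 of C cells were well above background on at least 1 array, and only Pdgfra, a fibroblast marker, passed the test between conditions, with a log2 ratio of 0.55.

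Some promoters of this gene family carry a known control sequence, which is shown first. The ER stress element, ERSE, consists of CCAAT, a spacer of any 9 bases and CCACG, and is known to be bound by NF-Y and cleaved Atf6. A shorter form, ERSE-II, has ATTGG, any 1 base and CCACG, and the unfolded protein response element, UPRE, searched as TGACGTGG, is known as a site of Atf6 and Xbp1. RefSeq promoter windows (build GRCr8), which run from 250 bases before to 50 bases after a gene's start, were available for 35 of the 44 genes and were searched on both strands. The ERSE letters were present in 9 of the 35 windows (25.7%), against 22 of all 33469 rat promoter windows (0.0657%). ERSE-II was found in 3 of the 35 (8.57%), against 17 of all windows (0.0508%), and UPRE in 2 of the 35 (5.71%), against 199 of all windows (0.595%). ERSE or ERSE-II was present in 12 of the 35 windows (34.3%), and 23 windows held neither. The 1 UPRE match of Hyou1 overlapped 1 of its 2 ERSE-II matches. A match is a description of these letters and does not show that a factor binds there. The genes were picked by name for folding and its stress response, so the shares are descriptive and were not tested.

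The 250 bases before the start of Hspa5, Calr and Derl3 are printed because these 3 members had the largest differences between 3D and 2D. Each is written 5′ to 3′ on the strand of the gene in build GRCr8, with the fixed letters of the ERSE in capitals, which in Calr and Derl3 read in the opposite orientation (CGTGG first, ATTGG last).
Hspa5, chr3:38452766-38453015, plus strand: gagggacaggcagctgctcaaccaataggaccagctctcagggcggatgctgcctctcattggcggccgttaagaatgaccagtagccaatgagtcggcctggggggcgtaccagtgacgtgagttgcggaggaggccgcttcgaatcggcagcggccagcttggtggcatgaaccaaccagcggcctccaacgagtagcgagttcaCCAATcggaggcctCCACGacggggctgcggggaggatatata
Calr, chr19:40213117-40213366, plus strand: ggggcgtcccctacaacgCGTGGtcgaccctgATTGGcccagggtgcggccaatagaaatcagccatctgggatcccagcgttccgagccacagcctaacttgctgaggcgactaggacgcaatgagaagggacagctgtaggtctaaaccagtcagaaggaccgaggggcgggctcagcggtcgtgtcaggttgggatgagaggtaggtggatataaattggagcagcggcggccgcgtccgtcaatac
Derl3, chr20:12766466-12766715, minus strand: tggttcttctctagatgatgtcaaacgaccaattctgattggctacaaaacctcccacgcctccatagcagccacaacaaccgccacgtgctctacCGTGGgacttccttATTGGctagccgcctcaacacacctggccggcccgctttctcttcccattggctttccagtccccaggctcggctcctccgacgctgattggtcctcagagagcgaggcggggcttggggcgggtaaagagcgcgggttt
In Hspa5 the element lay from 43 to 25 bases before the start, in Derl3 from 154 to 136 and in Calr from 232 to 214. The same letters stood before the member with the largest fall and before those with the largest rises, described below.

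Further elements, those of Hyou1 and the UPRE matches left out, are printed in the orientation of the motif, so that they can be set under each other, with 5 bases of flank for ERSE and up to 9 for ERSE-II. Capitals again mark the fixed letters, and the lower-case letters between them are the spacer, which differed from gene to gene. The first 7 lines are ERSE and the last 2 are ERSE-II.
Xbp1, chr14:84604553-84604581, plus strand: acaggCCAATcgcagacggCCACGaccct
Hsp90b1 distal, chr7:23012446-23012474, minus strand: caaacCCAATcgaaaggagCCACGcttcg
Hsp90b1 proximal, chr7:23012342-23012370, plus strand: acccaCCAATcgtgcctcaCCACGcactc
Creld2, chr7:121789234-121789262, minus strand: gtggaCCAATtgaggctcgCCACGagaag
Canx, chr10:35158064-35158092, minus strand: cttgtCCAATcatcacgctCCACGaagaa
Dnajc3, chr15:102432529-102432557, plus strand: caaagCCAATcagcgccaaCCACGaccca
Ero1b, chr17:92941453-92941481, minus strand: ggcggCCAATgaggcgggaCCACGagggc
Herpud1, chr19:10614812-10614840, minus strand: cgggcgctgATTGGgCCACGttgggcact
Dnajb11, chr11:91672800-91672819, minus strand: caggcggcgATTGGcCCACG
Hsp90b1 was the member with 2 ERSE matches, from 176 to 158 and from 72 to 54 bases before its start, in opposite orientations. Of the 12 members with an ERSE or ERSE-II, 4 were higher in 3D (Derl3, Calr, Xbp1 and Hsp90b1), 2 were lower (Hspa5 and Dnajb11) and 6 passed in neither direction, with a median log2 ratio of 0.05 and a range from -0.72 to 0.99. Among the 20 measured members whose windows held neither element, 3 were higher and 5 lower, with a median of 0.07 and a range from -0.35 to 0.35. Elsewhere in the genome 26 genes carried ERSE or ERSE-II. Of the 15 with a probe 2 were higher and 5 lower, with a median of -0.03 and a range from -1.18 to 0.54. Of all genes well above background on all 5 arrays, 26.7% were higher and 22.1% lower.

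**Figure D1:**
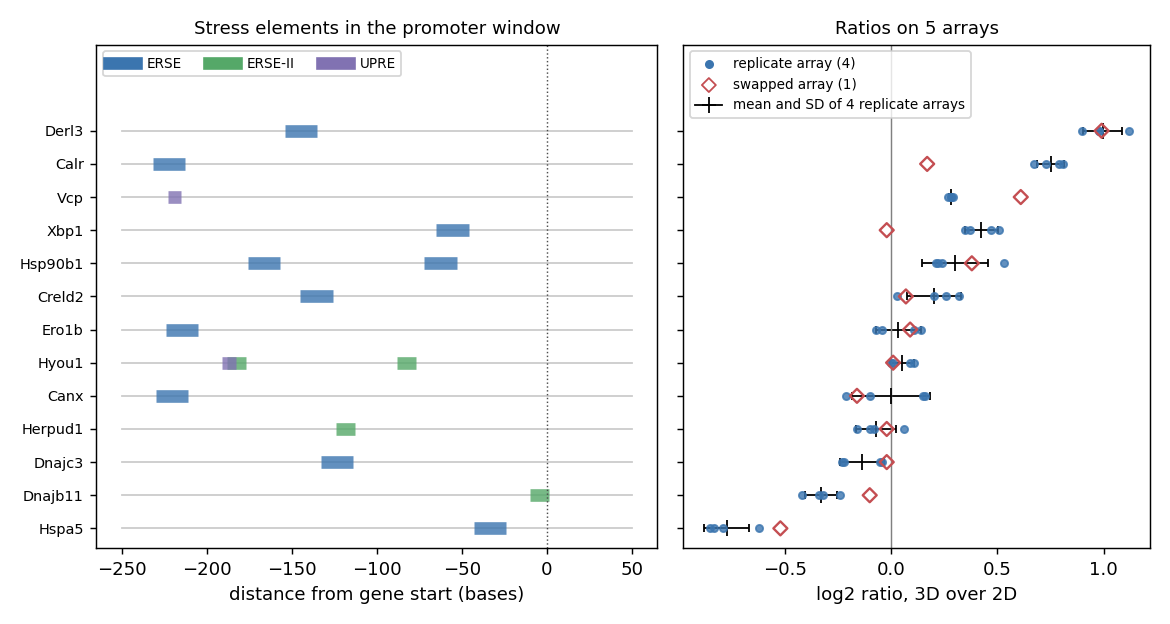
Position of the stress elements (left, bases from the gene start, window of 250 bases before to 50 after it) and log2 ratios of 3D over 2D (right) for the 13 members with an ERSE, ERSE-II or UPRE match, ordered by log2 fold change. Blue points are the 4 replicate arrays, red diamonds the swapped array, and black bars the mean and SD of the replicate arrays. Genes with an ERSE stand at the top (Derl3, 0.99) and at the bottom (Hspa5, -0.72).

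The folding machinery did not move in one direction. At an FDR of 0.01 in limma, 9 of the 40 measured members were higher in 3D and 10 were lower, and 21 passed in neither direction. Over all 15154 genes 25.9% passed, 14.4% higher and 11.5% lower. In both conditions 38 of the 40 members were well above background on all 5 arrays, the exceptions being Ern1 and Ero1b, and all 19 calls were among these 38 (50%). Of the 7609 genes that were so on all 5 arrays 48.8% passed, 26.7% higher and 22.1% lower, which is close to the share of the members. The median log2 ratio of the members was 0.05, against 0 over all genes, and it lay between -0.02 and 0.06 on each of the 5 arrays. Less RNA per cell and fewer cells that contain it cannot be told apart in these bulk samples. All 5 arrays share the 2D pool, so variation among 2D cultures does not enter the p-values. Pooled 3D cultures were used on the swapped array, which adds no culture to the 4 although the fit counts 5 arrays, so the p-values may be too small. With the 4 replicate arrays alone the exact two-sided sign-flip permutation test cannot go below p = 0.125. Leaving out replicate array 1, 2, 3 or 4 left 6, 4, 5 or 3 lower members and 6 or 7 higher ones, and with median centring in place of loess 0 members passed in either direction, while 14 higher and 0 lower had an unadjusted limma p under 0.05.

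**Figure D2:**
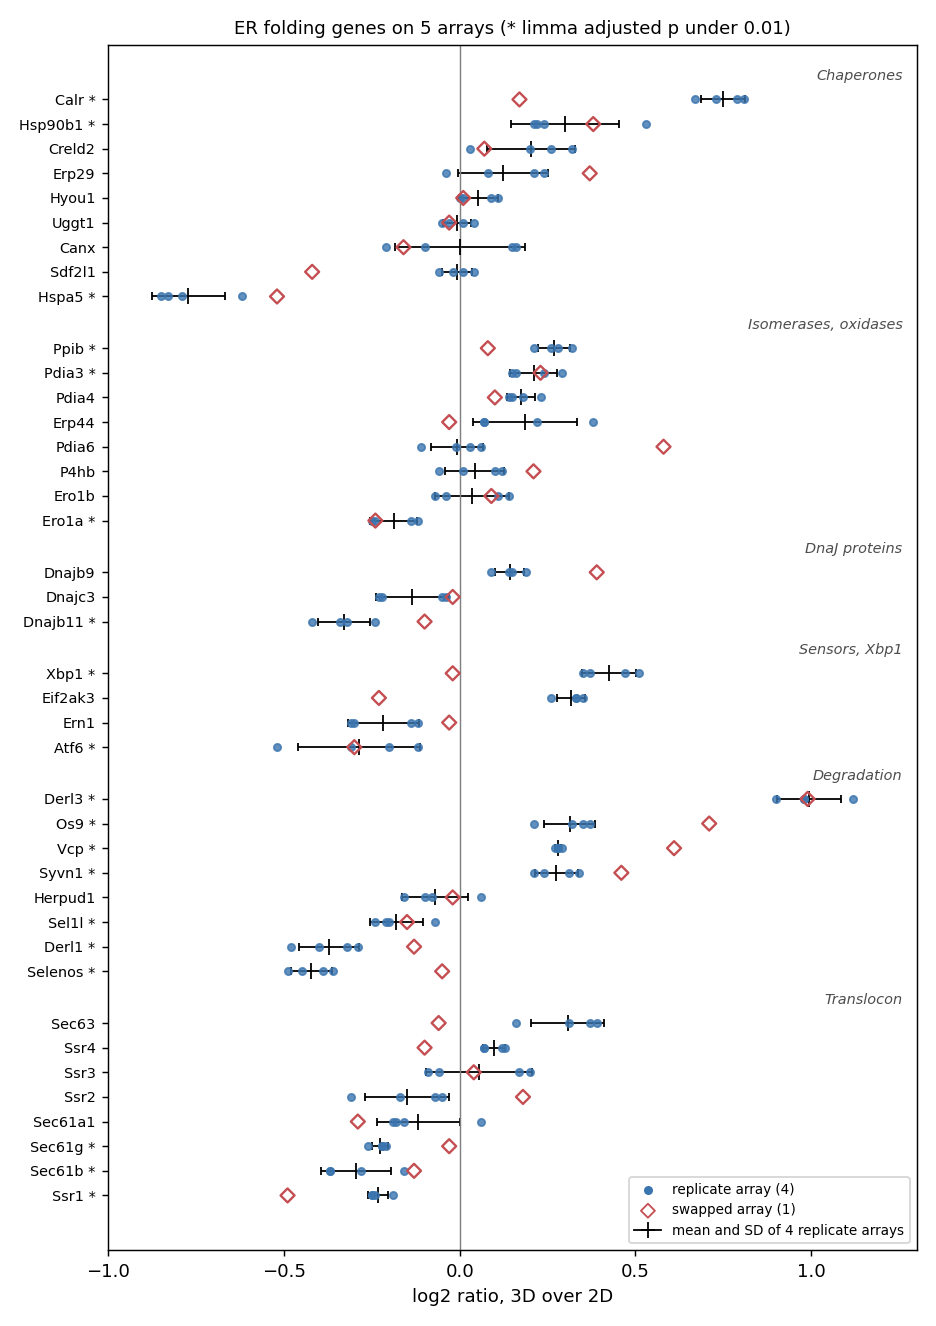
Log2 ratio of 3D over 2D for the 40 measured members, grouped by role. Blue points are the 4 replicate arrays, red diamonds the array with swapped dyes, black bars the mean and SD of the replicate arrays, and asterisks mark a limma adjusted p under 0.01. Derl3 and Calr stand furthest to the right and Hspa5 furthest to the left, and for Pdia6, Eif2ak3, Xbp1 and Calr the diamond lies far from the points.

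Among the chaperones, BiP and the lectin calreticulin moved in opposite directions. Hspa5 encodes BiP, the main Hsp70 of the ER lumen, which also holds the stress sensors inactive. Its log2 ratios on replicate arrays 1 to 4 were -0.62, -0.85, -0.83 and -0.79, and -0.52 on the swapped array. Signal was thus lower in 3D on all 5 arrays, the swapped array showing the smallest difference. In normalized log2 signal, 3D read 12.42, 12.13, 12.03 and 12.1 on the replicate arrays and 12.34 with swapped dyes, where 2D read 13.04, 12.98, 12.85, 12.89 and 12.85. The 3D and 2D readings did not overlap, although the 2D readings repeat 1 pool and leave out variation among 2D cultures. The fit gave a fall of 1.65-fold (log2 fold change -0.72 ± 0.06 SE, limma adjusted p = 8.75e-06).

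Calr encodes calreticulin, a calcium-binding lectin that retains glycoproteins until they are folded. Its ratios were 0.79, 0.73, 0.81 and 0.67 on the replicate arrays and 0.17 with swapped dyes. All were positive, but the swapped array lay far below the lowest replicate. In normalized log2 signal, 3D read 12.64, 12.69, 12.87 and 12.7 against 11.86, 11.96, 12.07 and 12.03 for 2D on the replicate arrays, and 12.27 against 12.1 on the swapped one. The fold change was 1.55 (log2 0.63 ± 0.09 SE, limma adjusted p = 0.000328), and with a term for the dye the log2 value was 0.46 (adjusted p = 4.3e-05). Calr is also among the genes the study itself drew from these arrays, so its rise here is not independent evidence. Canx encodes calnexin, the membrane-bound relative of calreticulin, and did not pass. Its replicate arrays fell into pairs of opposite sign, at 0.15, 0.16, -0.1 and -0.21, with -0.16 on the swapped array (log2 fold change -0.03, adjusted p = 0.775).

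**Figure D3:**
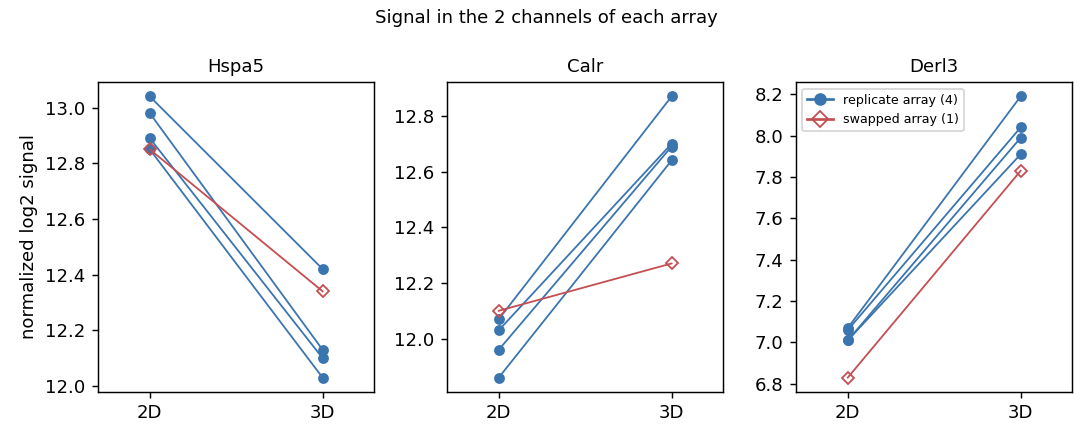
Normalized log2 signal of Hspa5, Calr and Derl3 in the 2D and the 3D channel of each array, with a line for each array, on an axis of its own for each gene. Blue lines are the 4 replicate arrays and the red line with open diamonds is the swapped array. Lines fall for Hspa5 and rise for Calr and Derl3 on all 5 arrays, and the red line of Calr is much flatter, from 12.1 to 12.27.

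Hsp90b1, which encodes the ER Hsp90 Grp94, was higher in 3D, with 0.53, 0.21, 0.24 and 0.22 on the replicate arrays and 0.38 with swapped dyes (fold change 1.25, limma adjusted p = 0.00141). Replicate array 1 stood well above the other replicates, which ran from 0.21 to 0.24, and all 5 values were positive. The remaining chaperones did not pass. Hyou1, an Hsp110-type exchange factor for BiP, ranged from 0 to 0.11 on all arrays, and Uggt1, the glucosyltransferase that checks glycoprotein folding, from -0.05 to 0.04. Creld2, a stress-induced disulfide isomerase-like protein, read 0.2, 0.03, 0.32, 0.26 and 0.07 on the swapped array (log2 fold change 0.18, adjusted p = 0.0252). Erp29, a chaperone of secretory proteins, read -0.04, 0.08, 0.24 and 0.21, and 0.37 on the swapped array (log2 fold change 0.17, adjusted p = 0.0546), and passed once a dye term was added (0.24, adjusted p = 0.0092).

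Sdf2l1 encodes a partner of DnaJ proteins and BiP, and its 2 probes disagreed. The brighter probe read -0.06, -0.02, 0.01 and 0.04 on the replicate arrays and -0.42 with swapped dyes (log2 fold change -0.09, limma adjusted p = 0.369). The dimmer one read -0.84, -0.57, -0.55, -0.68 and -0.47 on the same arrays, a mean of -0.62. All 5 arrays were therefore lower in 3D by the dimmer probe, and the replicate arrays were near 0 by the brighter one. With a dye term the brighter probe gave -0.21 (adjusted p = 0.00306). The mean of both probes, without that term, gave -0.36 (adjusted p = 0.000142). The size of the difference thus depended on the probe read, and the gene was not called where the brightest probe stood for it.

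Disulfide and proline isomerases and oxidases, which form and reshuffle disulfide bonds or turn proline bonds, held 2 higher and 1 lower of 8. Of all genes well above background on every array, 26.7% were higher and 22.1% lower. Ppib, the ER cyclophilin B, read 0.28, 0.26, 0.21 and 0.32 on the replicate arrays and 0.08 with swapped dyes (fold change 1.17, limma adjusted p = 0.00306). Pdia3 (ERp57), the isomerase that works with calreticulin and calnexin, read 0.29, 0.15, 0.24 and 0.16, and 0.23 on the swapped array (fold change 1.16, adjusted p = 0.00223). Both were positive on all 5 arrays, and for Pdia3 the swapped array lay inside the range of the replicates. Ero1a, the oxidase that recharges the isomerases, was lower, at -0.12, -0.24, -0.14, -0.25 and -0.24 on the swapped array (log2 fold change -0.2, adjusted p = 0.00387), while its paralog Ero1b was near background, well above it on 1 array in each condition, with values from -0.07 to 0.14.

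Pdia6 (P5), an isomerase that interacts with BiP, showed the widest gap between dye orientations of all members. The replicate arrays lay around 0, at 0.03, -0.11, 0.06 and -0.01, and the swapped array was at 0.58. It did not pass in the fit without a dye term (log2 fold change 0.11, limma adjusted p = 0.417) and did with one (0.29, adjusted p = 0.00105). P4hb, the classical protein disulfide isomerase, read 0.01, -0.06, 0.1 and 0.12, and 0.21 on the swapped array, and Pdia4 (ERp72) ranged from 0.1 to 0.23 over the 5 arrays (adjusted p = 0.294 and 0.0111). Erp44, which retains Ero1 proteins in the early secretory pathway, read 0.07, 0.38, 0.07 and 0.22 on the replicate arrays and -0.03 with swapped dyes (adjusted p = 0.0994).

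Of the 3 DnaJ cochaperones, which hand clients to BiP and trigger its ATPase, 1 passed, against 48.8% of all genes well above background on every array. Dnajb11 (ERdj3) was lower in 3D like BiP itself, at -0.42, -0.34, -0.24 and -0.32, and -0.1 on the swapped array (log2 fold change -0.28, limma adjusted p = 0.00176). Dnajb9 (ERdj4) was positive on all arrays, at 0.19, 0.14, 0.15 and 0.09, and 0.39 on the swapped array, and passed only with a dye term (0.26, adjusted p = 0.000903, against 0.0161 without). Dnajc3 (p58IPK) read -0.05, -0.04, -0.23 and -0.22, and -0.02 on the swapped array (adjusted p = 0.108).

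The sensors and their transcription factor went different ways, and the swapped array stood furthest from the replicates for Eif2ak3 and Xbp1. Atf6, the sensor that is cleaved in the Golgi to a transcription factor, was lower in 3D, at -0.2, -0.12, -0.52 and -0.31 on the replicate arrays and -0.3 with swapped dyes (log2 fold change -0.29, limma adjusted p = 0.00313). The other probe of the gene, at -0.27, -0.37, -0.22, -0.2 and -0.15, was also lower on all 5 arrays. Xbp1, whose mRNA is spliced by Ire1 to encode a transcription factor, was higher on the replicate arrays, at 0.35, 0.37, 0.51 and 0.47, and at -0.02 on the swapped array (log2 fold change 0.34, adjusted p = 0.00501). Whether the spliced or the unspliced form is read by this probe was not tested.

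Eif2ak3 encodes Perk, the kinase that phosphorylates eIF2-alpha. It read 0.35, 0.33, 0.33 and 0.26 on the replicate arrays and -0.23 with swapped dyes. The replicates were tightly grouped above 0 and the swapped array pointed the other way, so that the gene did not pass (log2 fold change 0.21, limma adjusted p = 0.0825), and with a dye term the value was 0.05 (adjusted p = 0.508). Ern1, which encodes Ire1, was well above background on 3 arrays in 3D and 4 in 2D and read -0.14, -0.31, -0.12 and -0.3, and -0.03 on the swapped array (log2 fold change -0.18, adjusted p = 0.0236).

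In ER-associated degradation 4 members were higher and 3 lower of 8 measured, where 48.8% of all genes well above background on every array passed. Derl3, a derlin of the retrotranslocation channel that is known for its induction through Ire1 and Xbp1, was the member with the largest change. Its ratios were 0.98, 0.9, 1.12 and 0.98 on the replicate arrays and 0.99 with swapped dyes, the latter inside the range of the replicates. In normalized log2 signal, 3D read 7.99, 7.91, 8.19 and 8.04 against 7.01, 7.01, 7.07 and 7.06 for 2D, and 7.83 against 6.83 on the swapped array. These readings did not overlap, but those of 2D again repeat 1 pool. The fold change was 1.99 (log2 0.99 ± 0.04 SE, limma adjusted p = 2.42e-07). A dimmer probe of the gene read 0.34, 0.23, 0.36, 0.21 and 0.11, also positive on every array but smaller. Derl1, the related derlin, went the other way, at -0.4, -0.29, -0.48 and -0.32, and -0.13 on the swapped array (log2 fold change -0.32, adjusted p = 0.00107).

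Os9, a lectin that delivers misfolded glycoproteins to the ligase complex, read 0.37, 0.21, 0.32 and 0.35 on the replicate arrays and 0.71 with swapped dyes (fold change 1.31, limma adjusted p = 0.00124). Vcp, the p97 ATPase that pulls substrates out of the membrane, had nearly equal replicates, at 0.28, 0.28, 0.27 and 0.29, and 0.61 on the swapped array (fold change 1.27, adjusted p = 0.00107). Syvn1, the ubiquitin ligase Hrd1, read 0.31, 0.24, 0.34 and 0.21, and 0.46 on the swapped array (fold change 1.24, adjusted p = 0.000562). These 3 genes were higher in 3D on all 5 arrays, and for each the swapped array gave the largest value. Selenos, a selenoprotein that links derlins to p97, was lower at -0.45, -0.49, -0.39 and -0.36, and -0.05 on the swapped array (log2 fold change -0.35, adjusted p = 0.002). Sel1l, the adaptor of Hrd1, had a log2 fold change of -0.17 by its brighter probe (adjusted p = 0.00884), while the dimmer one averaged -0.04. Herpud1, a stress-induced organizer of the ligase complex, read between -0.16 and 0.06 (adjusted p = 0.386).

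The translocon, through which chains enter the ER, had 0 members higher and 3 lower of 8. All 8 were well above background on all 5 arrays, and among all such genes 26.7% were higher and 22.1% lower. Sec61g, a small subunit of the channel, read -0.22, -0.22, -0.26 and -0.21 on the replicate arrays and -0.03 with swapped dyes (log2 fold change -0.19, limma adjusted p = 0.00895), and the dimmer probe averaged -0.36. Sec61b, the other small subunit, was lower at -0.37, -0.37, -0.16, -0.28 and -0.13 on the swapped array (log2 fold change -0.26, adjusted p = 0.00239). The channel subunit Sec61a1 read 0.06, -0.19, -0.16 and -0.18, and -0.29 on the swapped array (adjusted p = 0.0516). Values of all 3 Sec61 subunits were thus negative except for Sec61a1 on replicate array 1. Under median centring in place of loess Sec61b and Sec61g were at 0.11 and 0.27, where the median of the genes well above background was 0.43.

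Among the subunits of the translocon-associated protein complex (TRAP), which helps some signal sequences into the channel, Ssr1 was lower at -0.19, -0.24, -0.25 and -0.25, and -0.49 on the swapped array (log2 fold change -0.28, limma adjusted p = 0.00166), with a dimmer probe at a mean of -0.42. Ssr2 read -0.31, -0.17, -0.05 and -0.07 on the replicate arrays and 0.18 with swapped dyes, and Ssr4 read 0.07, 0.13, 0.12 and 0.07 against -0.1. In both the swapped array ran against all 4 replicates, and neither passed (adjusted p = 0.387 and 0.399). Ssr3 split its replicates, at 0.2, 0.17, -0.06 and -0.09, with 0.04 on the swapped array. Sec63, which recruits BiP to the channel, read 0.16, 0.31, 0.39 and 0.37, and -0.06 on the swapped array (log2 fold change 0.23, adjusted p = 0.0217).

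The 9 lower members other than Hspa5 changed sign under median centring in place of loess, where they lay between 0.11 and 0.27, while the median of the genes well above background was 0.43 and that of the members 0.47 in that setting. Relative to that median all 9 were still the lower. Hspa5 was at -0.23, Calr at 1.13 and Derl3 at 1.3 there. In the 13 other alternatives the 19 called members kept their sign, and Hspa5, Calr and Derl3 were the 3 that passed in every one of the 13.

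In the members with the brightest probes the swapped array differed from the replicate arrays, by amounts that varied from gene to gene. Mean signal of 12 members lay above the 90th percentile of all genes (normalized log2 signal 11.3), namely Hspa5, Calr, Sdf2l1, Pdia6, P4hb, Ppib, Syvn1, Vcp, Sec61g, Ssr1, Ssr2 and Ssr4. Probe brightness depends on the probe as well as on the transcript, so it does not rank transcripts. In these 12 genes the replicate arrays lay close together, with a median SD of 0.05, while for all 12 the swapped array fell outside the range of the 4 replicates. Over all genes this was so in 62.7%, and in 74.5% of the 1516 genes above the 90th percentile. The absolute difference between the replicate mean and the swapped array had a median of 0.26 in the bright members, 0.15 in the other 28 members, 0.2 in all bright genes and 0.13 in all genes.

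The differences had no common direction. In 5 of the 12 bright members the replicate mean was the higher, led by Calr (0.58), Sdf2l1 (0.41) and Ssr1 (0.26), and in 7 the swapped array was the higher, led by Pdia6 (-0.59), Vcp and Ssr2 (both -0.33) and Hspa5 (-0.26). Calr and Pdia6, with close to the same mean signal (12.32 and 12.55), therefore differed between orientations by similar amounts with opposite sign. At an FDR of 0.01 in limma, 3 of the 40 members had a dye effect, Calr (adjusted p = 0.00798), Pdia6 (0.00882) and Eif2ak3 (0.00821), against 1.9% of all genes, and 2 of the 12 bright members against 6.6% of all bright genes. The count was 0 without replicate array 2, 3 or 4, where 13, 14 and 13 members had an unadjusted limma p under 0.05, and it was 3 without replicate array 1. With 1 swapped array, which also holds a pool of 3D cultures in place of single ones, an effect of the dye and any other feature of that array cannot be told apart.

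**Figure D4:**
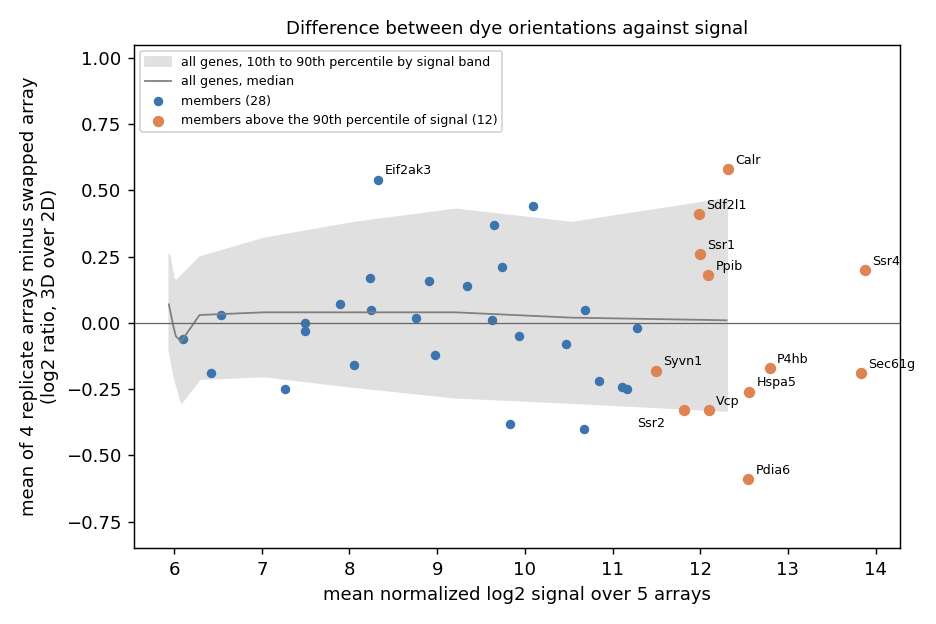
Mean of the 4 replicate arrays minus the swapped array (log2 ratio of 3D over 2D) against mean normalized log2 signal for the 40 members, with the 12 brightest in orange. The grey band spans the 10th to 90th percentile of all genes in each of 10 signal bands and the grey line is their median. The bright members spread from -0.59 (Pdia6) to 0.58 (Calr) around a median of all genes near 0.

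Over all 40 members, 24 had the same sign on all 5 arrays, against 36.3% of all genes, many of which are at background. In 6 members (Erp44, Eif2ak3, Xbp1, Sec63, Ssr2 and Ssr4) the 4 replicate arrays shared a sign and the swapped array had the opposite one, against 19.9% of all genes. With a term for the dye, 26% of all genes passed, and of the members 12 were higher and 9 lower. The 2 fits shared 17 called members. Dnajb9, Erp29 and Pdia6 (higher) and Sdf2l1 (lower) passed only with the term, and Sel1l and Sec61g (both lower) only without it.

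Signalling genes of the stress response outside the set also moved in both directions. Among all genes well above background on every array 26.7% were higher and 22.1% lower. Of 19 measured genes of unfolded protein response signalling, 5 were higher and 7 lower, with a median of 0.02, and the 3 lowest were Ppp1r15a, Ddit3 and Atf4. Atf4, the transcription factor whose translation is favoured when eIF2-alpha is phosphorylated, read -1.29, -0.95, -1 and -0.96 on the replicate arrays and -0.72 with swapped dyes (log2 fold change -0.98, limma adjusted p = 4.7e-06). Ddit3 (Chop), a target of Atf4 linked to cell death, read -1.3, -1.26, -1.55 and -1.47, and -1.95 on the swapped array (2.84-fold lower, adjusted p = 1.58e-06). Ppp1r15a (Gadd34), the phosphatase subunit that reverses eIF2-alpha phosphorylation, read -1.95, -1.63, -1.85 and -1.75, and -2.18 (3.66-fold lower, adjusted p = 1.31e-07). All 3 were lower in 3D on every array.

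The gene lists were chosen with earlier results of these data known, and Trib3 was named singly beside them as a gene known to be induced by stress. Trib3 is a pseudokinase under the control of Atf4 and Ddit3 and is not in that list. It read -2.99, -2.73, -2.64 and -2.59, and -3.01 on the swapped array (6.93-fold lower, limma adjusted p = 1.56e-08). Its smallest difference was larger than that of any member of the folding set. These 4 genes passed in 13 of 14 alternatives each, all but median centring in place of loess, where they were still negative, at -0.49 for Atf4, -1 for Ddit3, -1.34 for Ppp1r15a and -2.26 for Trib3. Among the genes of the list that were higher were Nfe2l2 (Nrf2), a regulator of antioxidant genes that is also a reported Perk substrate, with 1.17, 0.92, 0.67 and 0.69, and 1.23 on the swapped array (fold change 1.91, adjusted p = 2.34e-05), and 2 other kinases of eIF2-alpha, Eif2ak1 (Hri, fold change 1.5, adjusted p = 0.000165) and Eif2ak2 (Pkr, 1.36, adjusted p = 2.47e-05).

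**Figure D5:**
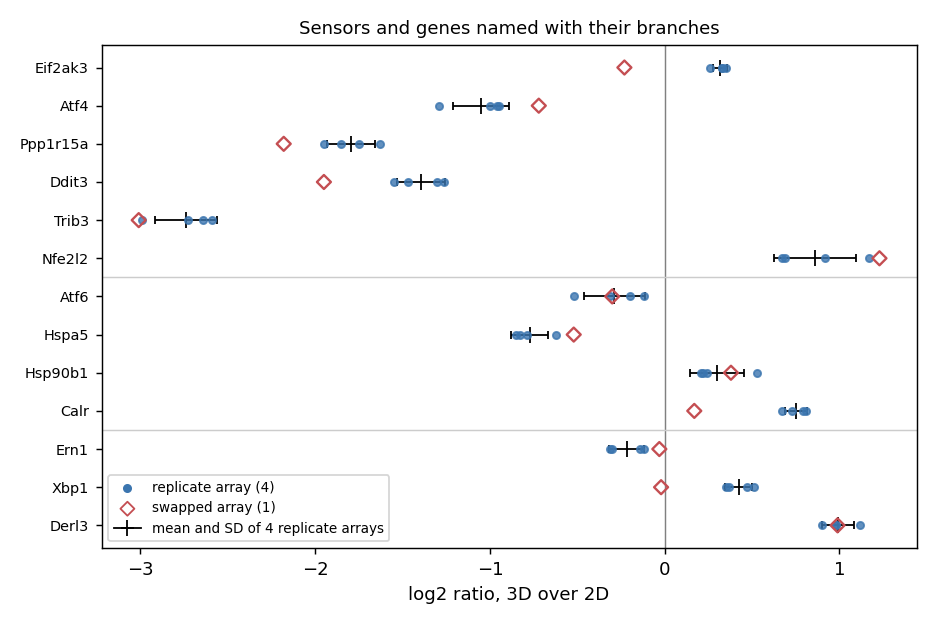
Log2 ratio of 3D over 2D for the 3 sensors and genes commonly named with each branch (from the top, Perk, Atf6 and Ire1, separated by grey lines). Blue points are the 4 replicate arrays, red diamonds the swapped array, and black bars the mean and SD of the replicate arrays. Atf4, Ppp1r15a, Ddit3 and Trib3 lie at -0.72 or below on every array. Hspa5, Atf6 and Ern1 also lie left of 0 on every array, while Nfe2l2, Hsp90b1, Calr and Derl3 lie right of 0. Eif2ak3 and Xbp1 lie right of 0 on the replicate arrays and left of it on the swapped array, at -0.23 and -0.02. The genes shown are a selection that includes the lowest signalling genes. It leaves out stress-induced members that did not pass, such as Herpud1 (-0.06) and Creld2 (0.18). Whether a branch moved as a set was not tested.

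Other ER machinery also moved in both directions. The counts here and in the paragraphs that follow stand against 26.7% higher and 22.1% lower among all genes well above background on every array. Of 11 subunits of the oligosaccharyltransferase, which attaches N-glycans, 3 were higher (Tusc3, log2 fold change 0.77, Ost4, 0.54, and Rpn1, 0.2) and 2 lower (Ostc, -0.36, and the catalytic subunit Stt3a, -0.31), with a median of 0. Tusc3, an oxidoreductase subunit, was positive on all arrays, at 0.92, 0.89, 0.79, 0.77 and 0.49 (limma adjusted p = 1.05e-05), whereas Ostc turned from between -0.41 and -0.56 on the replicate arrays to 0.11 on the swapped array. Of 7 genes of the signal recognition particle and its receptor, which bring ribosomes to the translocon, Srp14 was higher (0.78, adjusted p = 1.85e-06) and Srp19 (-0.32) and Srp68 (-0.22) were lower. Of 8 genes of signal peptidase and translocon partners, 3 were higher (Sec11a, 0.29, Spcs2, 0.21, and Tram1, 0.18) and the catalytic paralog Sec11c was lower (-0.29). The ER membrane protein complex, an insertase, had 3 of 9 higher (Emc10, 0.28, Emc3, 0.26, and Emc2, 0.25) and Emc6 lower (-0.39, adjusted p = 4.62e-05).

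Of 17 further degradation genes 3 were higher (the lectin Erlec1, 0.35, Herpud2, 0.27, and Get4, 0.24) and 3 lower (the ubiquitin-conjugating enzyme Ube2j1, -0.55, Aup1, -0.35, and the ligase Rnf185, -0.23). Of 25 further folding enzymes 5 were higher and 6 lower, with a median of -0.04. Qsox1, a sulfhydryl oxidase of the Golgi and extracellular space, read 0.88, 1.1, 0.93, 1.07 and 0.99 on the swapped array (fold change 1.99, limma adjusted p = 3.21e-07), a rise like that of Derl3, and Cnpy3 (0.49) and Sdf2 (0.41) followed. Those lowest were the prolyl isomerase Fkbp11 (-0.45, adjusted p = 5.35e-05), Txndc12 (-0.42) and Pdia5 (-0.31). Cnpy3 ran from 0.41 to 0.75 on the replicate arrays and was at -0.03 on the swapped array.

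Of 19 genes of COPII coats and early transport, which carry folded proteins to the Golgi, 3 were higher (Ergic3, 0.7, Sec31a, 0.41, and Sec24b, 0.18) and 3 lower (the KDEL receptor Kdelr2, -0.37, the cargo lectin Lman1, -0.24, and Sar1b, -0.22). Ergic3 and Sec31a ran from 0.75 to 0.92 and from 0.46 to 0.55 on the replicate arrays, and were at 0.12 and 0.01 on the swapped one. As a contrast, 22 chaperones from outside the ER were examined, of which 4 were higher and 7 lower, with a median of -0.04. The highest were Hspb1 (0.88, limma adjusted p = 7.28e-06), Hspa8 and Dnaja1 (both 0.46), and the lowest were the mitochondrial Hsp70 Hspa9 (-0.8, adjusted p = 6.07e-07) and the chaperonin subunits Cct4 (-0.48) and Cct5 (-0.37). Under median centring in place of loess, 15 of the 18 lower genes named from these lists were above 0, and Ube2j1, Fkbp11 and Hspa9 were below it. The median of the genes well above background was 0.43 in that setting, and all 18 lay at 0.31 (Srp68 and Sar1b) or below.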

How the data were processed

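RNA of FRT cells was measured on 5 Agilent 2-colour rat arrays of 1 slide. The authors' deposited intensities are median spot and local background signals from the scanner software, without normalization. The authors' value table, used as an alternative, holds log2 ratios made with limma, which run 3D over 2D on all 5 arrays when set against the scanner files. Agilent's processed signals, deposited in the same files as intensities after background and dye correction, were another alternative, and the deposited log10 ratios of those signals, Cy5 over Cy3 per the file headers, were not used.

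All values come from limma 3.58.1 (R 4.3.3). Normexp background correction used an offset of 50, which compresses the ratios of dim genes, ratios were normalized by loess and average signals by quantiles, and spots marked as outliers were dropped. Of 30367 probes 17998 had a symbol through RefSeq accessions, for 15154 genes, and the brightest probe stood for its gene. The arrays were designed on an earlier build than GRCr8, which was used for names and promoters. Ratios were tested by a linear model over 5 arrays, after turning the sign of the swapped one (pooled 3D cultures, so 4 separate 3D cultures in all), with Benjamini-Hochberg adjustment over all genes at an FDR of 0.01. A second model added a dye term, which is the dye effect tested. In simulated data with 50 of 15151 genes changed at each size, the fit recovered 30% at 0.3 on the log2 scale, 86% at 0.5 and 98% at 1. In the real data 3918 genes passed, which makes the adjusted threshold less strict, so these rates do not carry over. Small differences may still be missed. The number of arrays limits the precision.

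The members and gene lists were chosen with earlier results of these data known. All 40 measured members are named, with values on every array for the bright ones, the 10 largest changes, those whose swapped array ran against the replicates, and the sensors; other lists contribute at most 3 higher and 3 lower genes. Protein sequences were not used here.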

Additional observations from a re-analysis of the deposited data

Results flagged for a closer look

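In 3 of the 40 measured members 1 replicate array stood apart from the other 3 by more than Dixon's 95% critical value for 4 samples, and in all 3 it was replicate array 1. The log2 ratio of Hsp90b1 was 0.53 on it against 0.21 to 0.24 on the others, that of Sec61a1 was 0.06 against -0.19 to -0.16, and that of Ssr1 was -0.19 against -0.25 to -0.24. Chance flags about 1 in 20 groups. Without that array the log2 fold changes were 0.26 for Hsp90b1, -0.31 for Ssr1 and -0.2 for Sec61a1, with limma adjusted p of 0.00403, 0.00382 and 0.011, so no call changed.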

How the results depend on the processing

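Under median centring in place of loess 0 members were higher and 0 lower (14 and 0 at an unadjusted limma p under 0.05), 7 genes in all passed, and 38 members had a dye effect. The lower members then stood at 0.21 (Ero1a), 0.25 (Dnajb11), 0.23 (Atf6), 0.12 (Sel1l), 0.21 (Derl1), 0.18 (Selenos), 0.11 (Sec61b), 0.27 (Sec61g) and 0.23 (Ssr1). With a dye term added to it, an alternative chosen after seeing the data, 8 members were higher and 5 lower, and the members' median went from 0.47 to 0.04. With a normexp offset of 0, 2 members were higher and 1 lower and 2222 genes passed in all, and with Agilent's processed signals 3 were higher and 2 lower. Members with a dye effect numbered 0 with either of these, with quantiles over all channels or with dim genes removed (9, 14, 18 and 17 at an unadjusted limma p under 0.05), 1 in the authors' value table and 8 at an FDR of 0.05. Leaving out 1 replicate array gave 6 to 7 higher members, 3 to 6 lower ones, 0 to 3 with a dye effect and 3006 to 3312 genes in all. The cause was not tested. No paired analysis was possible because the replicate numbers belong to the 3D side alone, the 2D side being 1 pool. Small differences are at the edge of what 5 arrays resolve. The called member Sel1l, at -0.17, passed in 5 of 14 alternatives.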
